A study of Mus musculus with 4 samples.

Results

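The collagen genes of mouse gastrocnemius muscle were taken as every gene whose name consists of Col, a number, the letter a and a number, which gave 44 of the 22252 gene names in the deposited tables. They were divided into 11 fibrillar collagens, 8 basement membrane collagens (type IV, XV and XVIII) and 25 other collagens. Gastrocnemius, a mixed calf muscle, had been taken from 7-week-old male C57BL/6J mice in 4 groups, and all 4 groups carried floxed alleles of Nr3c1, the gene of the glucocorticoid receptor (GR). Lean GRf/f mice had wild-type leptin alleles (Lep+/+) and no Cre, lean GRmKO mice had in addition 1 copy of an Acta1-Cre transgene, and ob/ob GRf/f and ob/ob GRmKO mice were the corresponding animals homozygous for the ob allele of leptin (Lepob/ob). The Acta1 promoter drives Cre in muscle fibres, so that GR was deleted there and not by design in the fibroblasts, tendon cells and vessel cells of the same muscle, and the deletion was present from development on. Each group was 1 library made from the pooled RNA of 3 mice. No group had a replicate, so differences between groups were described by their size and no p-value was given. The comparisons asked how the muscle transcriptome differed with obesity in each genotype and with muscle GR in lean and in obese mice.

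Collagens are the main structural proteins of the extracellular matrix, built from 3 chains that wind around one another. Fibrillar collagens assemble into the banded fibrils of tendon and of the connective tissue around muscle, where type I and type III are the common forms and types V and XI start and limit fibril growth. Type IV collagen forms the sheet-like network of the basement membrane around each muscle fibre and capillary, and type VI collagen forms beaded filaments that link that membrane to the fibrils outside it. In muscle these genes are expressed mainly by fibroblasts and tendon cells, with vessel cells and the muscle fibres themselves adding basement membrane chains. In bulk tissue, fewer cells of a type and less RNA per cell cannot be told apart.

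The feature that defines the family is a repeat of 3 codons that starts with a glycine codon, GGN. In the listed coding sequences (GENCODE M21 transcripts, GRCm38) the longest uninterrupted run of such triplets was 216 to 344 triplets in the 11 fibrillar genes (median 338), 30 to 66 in the 8 basement membrane genes (median 41) and 23 to 113 in the 25 other genes (median 55). Stretches of 6 triplets from the 4 fibrillar and 2 basement membrane genes on which the comparisons below turn are shown from 5′ to 3′, with the first codon of each triplet in capitals.
Col1a1: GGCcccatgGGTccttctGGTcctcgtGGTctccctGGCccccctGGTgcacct
Col1a2: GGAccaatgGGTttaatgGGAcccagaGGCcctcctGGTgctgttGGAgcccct
Col3a1: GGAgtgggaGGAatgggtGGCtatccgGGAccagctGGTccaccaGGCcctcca
Col11a1: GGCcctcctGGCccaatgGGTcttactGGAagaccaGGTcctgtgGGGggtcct
Col4a1: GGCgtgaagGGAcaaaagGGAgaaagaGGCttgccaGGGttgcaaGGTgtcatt
Col4a2: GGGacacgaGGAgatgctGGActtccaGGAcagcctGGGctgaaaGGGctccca
The stretches cover codons 168 to 185 of Col1a1, 97 to 114 of Col1a2, 164 to 181 of Col3a1, 527 to 544 of Col11a1, 43 to 60 of Col4a1 and 777 to 794 of Col4a2. Each stretch is the start of the longest run of its gene, so the even spacing of the capital GGN codons follows from that choice. The codons in lower case differ from gene to gene, and some of them, as in Col3a1, are GGN as well. The classes differ in continuity: Col1a1, a chain of the main fibril collagen, holds its triplets in 2 blocks, the longest of 338, and Col4a1 holds its triplets in 22 blocks, the longest of 40. Col1a1 lies at chr11:94936224-94953042 (plus strand), Col1a2 at chr6:4505493-4541544 (plus), Col3a1 at chr1:45311538-45349706 (plus) and Col11a1 at chr3:114030540-114220718 (plus). Col4a1 at chr8:11198423-11312826 (minus) and Col4a2 at chr8:11312805-11449287 (plus) are transcribed in opposite directions from start sites 21 bases apart. Their listed transcripts overlap at the 5′ ends.

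The deposited values were expected counts, which summed to between 19897754 and 20959781 per library, and were expressed as CPM, the count of a gene per 1000000 counts of its library. Of the 44 collagen genes, 38 had a mean of at least 20 expected counts over the 4 libraries and were compared as members of the 12593 genes that passed this filter. Col6a4, Col9a3, Col10a1, Col17a1, Col19a1 and Col25a1 did not pass it and were at no more than 0.952 CPM in any library. A gene was called higher or lower where its CPM differed by at least 1.5-fold between libraries. Intervals are 95% intervals that cover counting error only and not the spread between mice. In the order lean GRf/f, lean GRmKO, ob/ob GRf/f and ob/ob GRmKO, which is used for all sets of 4 values, Nr3c1 was at 125, 67.0, 102 and 39.1 CPM, lower in both GRmKO libraries although transcripts of other cells and exons outside the deleted one still count. Scaling by TMM in place of the library total shifted all log2 ratios of ob/ob against lean by 0.113 in GRf/f and by 0.206 in GRmKO, and the median log2 ratio over all genes was -0.11 and -0.20 in these comparisons on the CPM scale.

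Collagen transcripts made up 0.667% of all counts in the lean GRf/f library, 0.737% in lean GRmKO, 1.29% in ob/ob GRf/f and 0.748% in ob/ob GRmKO. The ob/ob GRf/f library thus stood apart from the other three, and most of that distance lay in the fibrillar class. Summed fibrillar collagens were at 4336, 4661, 10062 and 5318 CPM. Their ratio of ob/ob to lean was 2.32 (counting interval 2.30 to 2.34) in GRf/f and 1.14 (1.13 to 1.15) in GRmKO. Without Col1a1 and Col1a2, the other 9 fibrillar genes summed to 1787, 2146, 2544 and 1476 CPM. The ratios of this part were 1.42 (1.40 to 1.44) in GRf/f and 0.688 (0.678 to 0.698) in GRmKO, so that it was lower with obesity in GRmKO. Summed basement membrane collagens varied far less, at 1250, 1459, 1385 and 1179 CPM, with ratios of 1.11 (1.09 to 1.13) in GRf/f and 0.808 (0.794 to 0.822) in GRmKO. The other collagens summed to 1086, 1247, 1456 and 980.3 CPM, with ratios of 1.34 (1.32 to 1.36) and 0.786 (0.771 to 0.801). The fibrillar class held 65.0% of collagen counts in lean GRf/f and 63.3% in lean GRmKO, 78.0% in ob/ob GRf/f and 71.1% in ob/ob GRmKO.

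**Figure D1:**
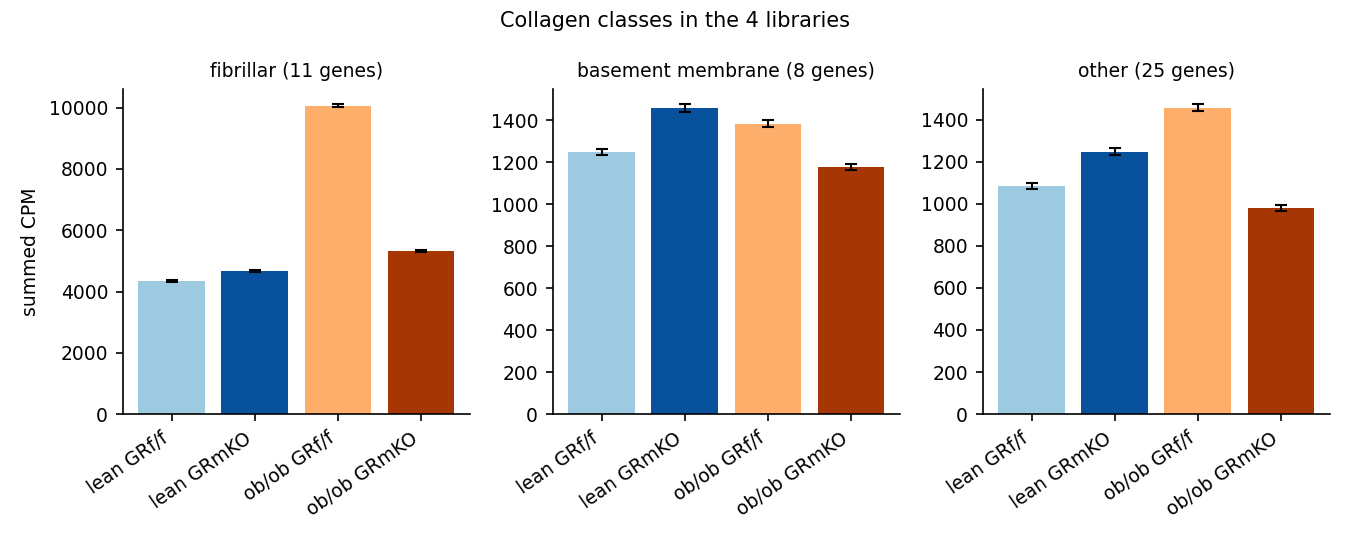
Summed CPM (y axes, linear and starting at 0) of the fibrillar, basement membrane and other collagens in each of the 4 libraries, with 95% Poisson intervals for counting error as error bars. The fibrillar sum of the ob/ob GRf/f library, 10062 CPM, is the highest bar of its panel, while the basement membrane sums lie between 1179 and 1459 CPM.

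Per kilobase of listed transcript, the measure used to compare genes with each other, Col1a1, Col1a2 and Col3a1 were the most abundant collagens, with means of 376, 350 and 260 CPM per kilobase over the libraries. Their order differed between libraries: in lean GRf/f they were at 216, 237 and 235 and in lean GRmKO at 213, 234 and 288 CPM per kilobase, with Col1a1 lowest, and in ob/ob GRf/f at 693, 638 and 333 and in ob/ob GRmKO at 384, 293 and 185, with Col1a1 highest. Col4a1 at 97.3, Col6a2 at 93.8 and Col6a1 at 92.6 CPM per kilobase formed a second tier of near-equal levels, with Col4a2 at 70.8. Col15a1, Col6a3, Col5a1, Col5a3 and Col5a2 followed between 30.9 and 21.8 CPM per kilobase, and no further collagen exceeded 7.08. These 12 genes are the same 12 that lead by mean CPM.

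With obesity in GRf/f muscle, 15 of the 38 collagen genes were higher and 0 were lower by at least 1.5-fold, where 6.58% of all tested genes were higher and 13.8% were lower. The 15 were Col1a1 and Col1a2 of type I, Col11a1 and Col11a2 of type XI, Col2a1, Col4a5 and 9 of the other class. Col9a1, 1 of these 9, passed the count filter only through its 75.4 expected counts in ob/ob GRf/f. Its calls in all comparisons are therefore a description only. The median log2 ratio was 0.44 over the collagen genes and -0.11 over all genes, and 32 of the 38 were above 0. In GRmKO muscle the same comparison gave 8 higher and 12 lower, where 6.00% of all genes were higher and 22.0% were lower. The median log2 ratio there was -0.33 against -0.20 over all genes. This split depended on the scaling: with TMM factors 10 collagen genes were higher and 7 lower, and with DESeq2 size factors 10 were higher and 6 lower. Col3a1, Col4a3, Col4a6, Col6a5 and Col28a1 lost their lower call under both, Col14a1 under the second, and Col8a1 and Col8a2 became higher under both. In GRf/f, both scalings called 18 collagen genes higher and 0 lower, adding Col3a1, Col5a1 and Col27a1 to the 15. Over all genes, the main scaling called 828 higher and 1742 lower in GRf/f and 756 and 2772 in GRmKO, and TMM factors called 1164 and 1275 in GRf/f and 1362 and 1745 in GRmKO.

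Between the lean libraries few collagen genes differed. Col24a1 and Col9a2 were higher in GRmKO and Col9a1, Col4a5 and Col22a1 were lower, that is 2 and 3 of 38, where 7.13% of all genes were higher and 5.13% were lower. Between the ob/ob libraries 1 collagen gene was higher in GRmKO and 20 were lower, where 6.33% of all genes were higher and 10.1% were lower. The 20 were 7 fibrillar, 3 basement membrane and 10 other collagens, and the median log2 ratio was -0.62 against -0.04 over all genes. Col9a1, which passed the count filter only through ob/ob GRf/f, is 1 of the 20. Because the ob/ob GRf/f library enters both this comparison and the comparison with obesity in GRf/f, the values of the libraries are given side by side below.

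**Figure D2:**
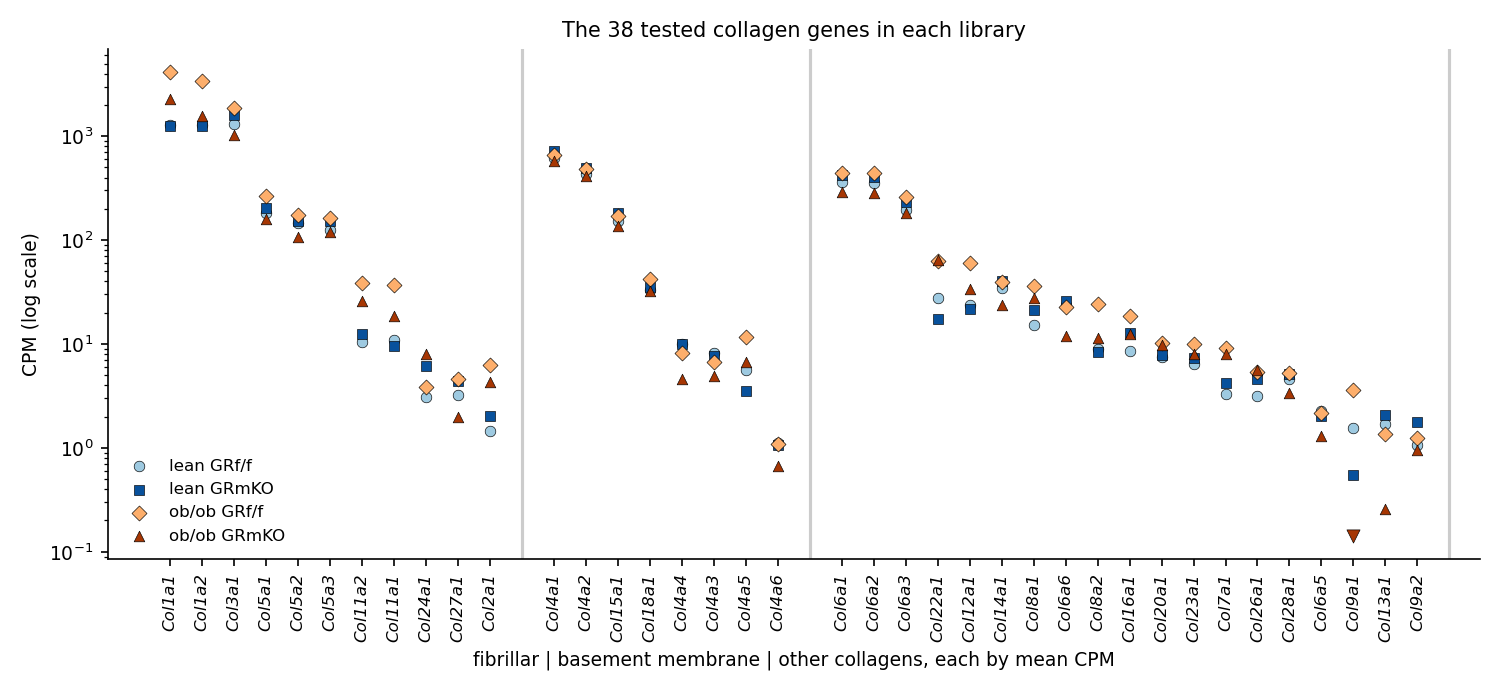
CPM on a log axis of the 38 tested collagen genes in each library, grouped as fibrillar, basement membrane and other collagens and ordered within a group by mean CPM. Symbols mark the 4 libraries, and the downward triangle places Col9a1 in ob/ob GRmKO, which had 0 counts, at the level of 3 counts. Col1a1, Col11a1 and Col11a2 are highest in ob/ob GRf/f with ob/ob GRmKO next, whereas the 4 symbols of Col4a1 and Col4a2 lie close together.

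Type I collagen, the main load-bearing fibril of tendon and connective tissue, showed the largest difference in counts. Col1a1, which encodes its alpha 1 chain, was at 1279, 1264, 4108 and 2277 CPM. The level with obesity was 3.21 times that of lean muscle in GRf/f (counting interval 3.17 to 3.26) and 1.80 times in GRmKO (1.77 to 1.83). Col1a2, which encodes the alpha 2 chain, was at 1269, 1251, 3411 and 1565 CPM, with ratios of 2.69 (2.65 to 2.73) in GRf/f and 1.25 (1.23 to 1.27) in GRmKO. Both genes were nearly equal in the lean libraries, with GRmKO to GRf/f ratios of 0.988 for Col1a1 and 0.986 for Col1a2. In the ob/ob libraries the same ratios were 0.554 and 0.459, so that obese GRmKO muscle lay between the lean and the obese GRf/f levels for both chains.

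Type III collagen, which makes thinner fibrils together with type I, took another course. Col3a1 was at 1307, 1602, 1853 and 1029 CPM, highest in ob/ob GRf/f and lowest in ob/ob GRmKO. The ratio with obesity was 1.42 in GRf/f, below the 1.5-fold limit, and 0.642 in GRmKO. Both calls depended on the scaling, since with TMM factors the log2 ratio was 0.62 in GRf/f, past the limit, and -0.43 in GRmKO, short of it. Obese GRmKO muscle had 0.556 times the level of obese GRf/f muscle. The type V genes, whose chains are built into type I fibrils and limit their width, were ordered like Col3a1. Col5a1 was at 182, 205, 264 and 160.1 CPM, Col5a2 at 144, 152, 174 and 107 CPM and Col5a3 at 124, 153, 163 and 120.2 CPM. None of these 3 genes reached 1.5-fold with obesity in either genotype on the CPM scale, although Col5a1 did in GRf/f with TMM factors (log2 ratio 0.65). Between the ob/ob libraries Col5a1 (ratio 0.607) and Col5a2 (0.616) were lower in GRmKO while Col5a3 was at 0.739.

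Type XI and type II collagen, the fibril collagens best known from cartilage, were scarce and, like type I, highest in ob/ob GRf/f with ob/ob GRmKO next. Col11a1 was at 10.9, 9.51, 37.0 and 18.6 CPM and Col11a2 at 10.5, 12.4, 38.2 and 25.97 CPM. Col2a1 was at 1.46, 2.01, 6.29 and 4.31 CPM. All 3 genes were higher with obesity in both genotypes: Col2a1 by 4.32-fold in GRf/f (counting interval 2.91 to 6.71) and 2.14-fold in GRmKO (1.46 to 3.18), Col11a2 by 3.65-fold and 2.09-fold, and Col11a1 by 3.39-fold and 1.95-fold. Among the cartilage and bone markers examined, Matn1 was at 0 in all 4 libraries and Acan did not exceed 1.05 CPM. Ibsp and Bglap, genes of bone cells, were at 2.56 and 2.16 CPM in lean GRf/f and at no more than 0.0953 CPM in the other libraries. Of this list only Matn3 and Chad passed the count filter, and both were higher with obesity in GRf/f and lower in GRmKO than in GRf/f among ob/ob mice.

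The 2 remaining fibrillar genes encode less well characterised fibril chains. Col24a1 was at 3.09, 6.19, 3.86 and 7.99 CPM, higher in both GRmKO libraries. Its GRmKO to GRf/f ratio was 2.002 (counting interval 1.47 to 2.76) in lean and 2.07 (1.57 to 2.72) in ob/ob mice, and it was the one collagen gene called higher in ob/ob GRmKO. Col27a1 was at 3.25, 4.43, 4.56 and 1.99 CPM, with a ratio of 0.436 between the ob/ob libraries.

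The abundant basement membrane collagens stayed within 1.5-fold, and the scarce ones did not. Col4a1 and Col4a2, whose chains form the common type IV network, were at 611, 723, 658 and 582 CPM and at 429, 496, 487 and 413 CPM. Neither reached 1.5-fold in any of the 4 comparisons, the largest being the ratio of 0.805 for Col4a1 with obesity in GRmKO. Col15a1, a collagen that anchors the basement membrane of muscle and capillaries to the matrix around it, was at 151, 183, 171 and 135 CPM, and it also stayed within 1.5-fold throughout. Col18a1, the precursor of endostatin, ranged from 32.5 to 42.3 CPM. The chains that form the second and the third type IV network, known from kidney and eye, were scarce. Col4a4 was at 10.004, 10.02, 8.25 and 4.61 CPM and Col4a3 at 8.22, 7.70, 6.77 and 4.95 CPM, both with the lowest value in ob/ob GRmKO. Col4a6 was at 1.11, 1.06, 1.096 and 0.666 CPM, on 14.0 to 23.1 expected counts. All 3 were called lower with obesity in GRmKO (ratios 0.461, 0.642 and 0.630), and Col4a4 and Col4a6 also between the ob/ob libraries (0.559 and 0.608). For Col4a6 the counting intervals of these ratios, 0.298 to 1.31 and 0.290 to 1.23, included no change. Col4a5 differed from the others of its class, at 5.65, 3.498, 11.6 and 6.64 CPM. It was higher with obesity by 2.04-fold in GRf/f (counting interval 1.64 to 2.58) and 1.90-fold in GRmKO (1.41 to 2.55), and lower in GRmKO than in GRf/f in both lean (ratio 0.619) and ob/ob mice (0.575).

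Type VI collagen held most of the counts of the other class, at 936, 1090.1, 1166 and 769.9 CPM in sum. Its 3 main chains were Col6a1 at 358, 425, 444 and 291 CPM, Col6a2 at 356, 406, 437 and 283 CPM and Col6a3 at 196, 231, 261 and 182 CPM. All 3 were highest in ob/ob GRf/f and lowest in ob/ob GRmKO, and Col6a1 (ratio 0.656) and Col6a2 (0.647) were called lower between the ob/ob libraries while Col6a3 was at 0.699. The call of Col6a1 was lost with TMM factors and both calls with DESeq2 size factors (log2 ratios -0.56 and -0.58). With obesity, none of the 3 reached 1.5-fold in either genotype. The alternative chains were lower in ob/ob GRmKO too: Col6a6 was at 23.8, 26.1, 22.5 and 12.03 CPM, and Col6a5 at 2.28, 2.02, 2.16 and 1.29 CPM.

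Several collagens that decorate fibrils, the FACIT collagens, were higher in obese muscle. Col12a1, abundant in tendon and muscle sheaths, was at 24.0, 21.9, 60.4 and 33.8 CPM, with ratios of 2.52 in GRf/f and 1.54 in GRmKO (counting interval 1.37 to 1.74). Col22a1, known from the junction of muscle and tendon, was at 27.4, 17.4, 62.6 and 64.1 CPM. It was one of 2 tested collagen genes whose ratio with obesity was larger in GRmKO (3.68) than in GRf/f (2.28), Col24a1 being the other, and its ob/ob libraries were alike (ratio 1.02). Col14a1 was at 34.7, 40.7, 39.4 and 23.5 CPM, lowest in ob/ob GRmKO like Col3a1. Col16a1 was at 8.57, 12.6, 18.6 and 12.5 CPM, with a ratio of 2.18 in GRf/f and 0.989 in GRmKO. Col9a1 was at 1.54, 0.554 and 3.597 CPM in the first 3 libraries and at 0 in ob/ob GRmKO. With 3 counts taken as the floor it was 25.1-fold lower there than in ob/ob GRf/f. As a ratio this is 0.0398, and the counting interval reached up to 0.0504. Col9a2, whose chain joins that of Col9a1, was at 1.06, 1.76, 1.24 and 0.953 CPM, and the counting interval of its lean ratio of 1.66 reached from 0.947 to 2.97.

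Among the remaining collagens, the short network collagens Col8a1 and Col8a2 were high in obese GRf/f muscle. Col8a2 was at 9.03, 8.30, 24.3 and 11.3 CPM and Col8a1 at 15.3, 21.2, 36.4 and 27.6 CPM, with ratios with obesity of 2.69 and 2.379 in GRf/f and of 1.36 and 1.30 in GRmKO. Col7a1, the collagen of anchoring fibrils, was at 3.32, 4.18, 9.06 and 7.99 CPM, higher with obesity in both genotypes. Col13a1, a membrane-spanning collagen of the neuromuscular junction, was at 1.69, 2.06, 1.36 and 0.255 CPM. Its ratio between the ob/ob libraries was 0.188 (counting interval 0.0539 to 0.469). Col28a1 was at 4.59, 5.13, 5.29 and 3.38 CPM. Col20a1, Col23a1 and Col26a1 lay between 3.14 and 10.3 CPM in all libraries, and of these Col23a1 (ratio 1.56) and Col26a1 (1.72) were called higher with obesity in GRf/f.

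The difference between genotypes in the change with obesity was taken gene by gene, as the log2 ratio in GRmKO minus that in GRf/f. It was below 0 for 36 of the 38 collagen genes (94.7%), where it was below 0 for 58.4% of all genes. It was below 0 by at least 1.5-fold for 26 collagen genes (68.4%) and for 15.7% of all genes. The median was -0.80 over the collagen genes and -0.07 over all genes. By class, the median was -0.83 for the fibrillar, -0.45 for the basement membrane and -0.82 for the other collagens. The difference combines all 4 libraries, each without a replicate, and was therefore not tested.

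**Figure D3:**
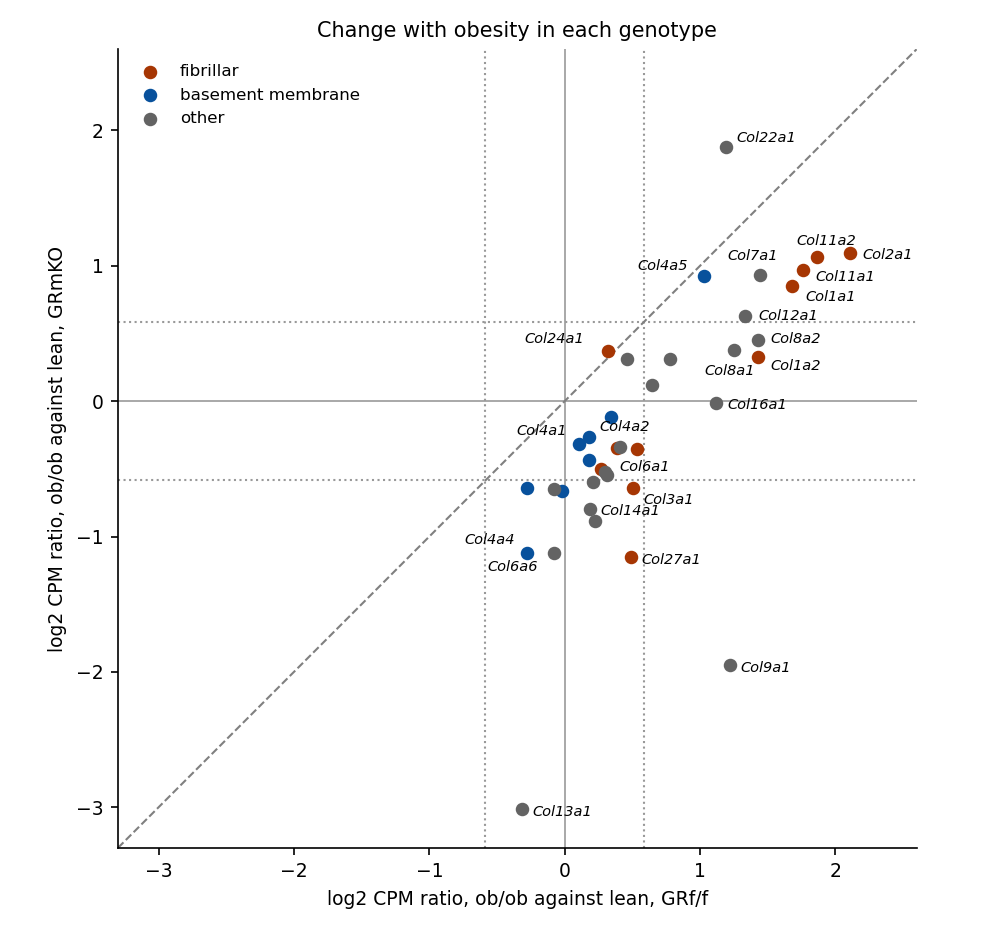
Log2 CPM ratio of ob/ob against lean in GRf/f (x axis) and in GRmKO (y axis) for the 38 tested collagen genes, coloured by class, with dotted lines at 1.5-fold and a dashed line of equal change. All but 2 of the points, Col22a1 and Col24a1, lie below the dashed line. Col9a1 in GRmKO is drawn at the bound given by 3 counts.

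Ratios between collagen genes within a library do not depend on the scaling of libraries. The ratio of Col1a1 to Col3a1 counts was 0.979 in lean GRf/f, 0.789 in lean GRmKO, 2.22 in ob/ob GRf/f and 2.21 in ob/ob GRmKO. The ob/ob libraries did not differ in this ratio beyond their counting intervals of 2.19 to 2.24 and 2.18 to 2.25, although the level of each gene differed between them. For the other type I chain they did: the ratio of Col1a2 to Col3a1 was 0.971 and 0.781 in the lean libraries, 1.84 (1.82 to 1.86) in ob/ob GRf/f and 1.52 (1.49 to 1.55) in ob/ob GRmKO. The ratio of Col1a1 to Col1a2 counts was 1.01 in both lean libraries, 1.204 in ob/ob GRf/f and 1.45 in ob/ob GRmKO. Per kilobase of listed transcript it was 0.909, 0.911, 1.09 and 1.31. The chains join in type I collagen as 2 to 1, which is a ratio of proteins and not of RNA. Of the partner chains of networks, Col4a1 to Col4a2 lay between 1.35 and 1.46 and Col6a1 to Col6a2 between 1.01 and 1.05. Col8a1 to Col8a2 varied more, at 1.70, 2.55, 1.501 and 2.44, higher in both GRmKO libraries. The ratio of Col1a1 to Col4a1, a measure of fibril against basement membrane transcripts, was 2.09, 1.75, 6.24 and 3.91, and that of Col3a1 to Col4a1 was 2.14, 2.22, 2.82 and 1.77. Col11a1 to Col5a1, chains of related fibril collagens, was at 0.0600, 0.0465, 0.140 and 0.116, higher in both ob/ob libraries.

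**Figure D4:**
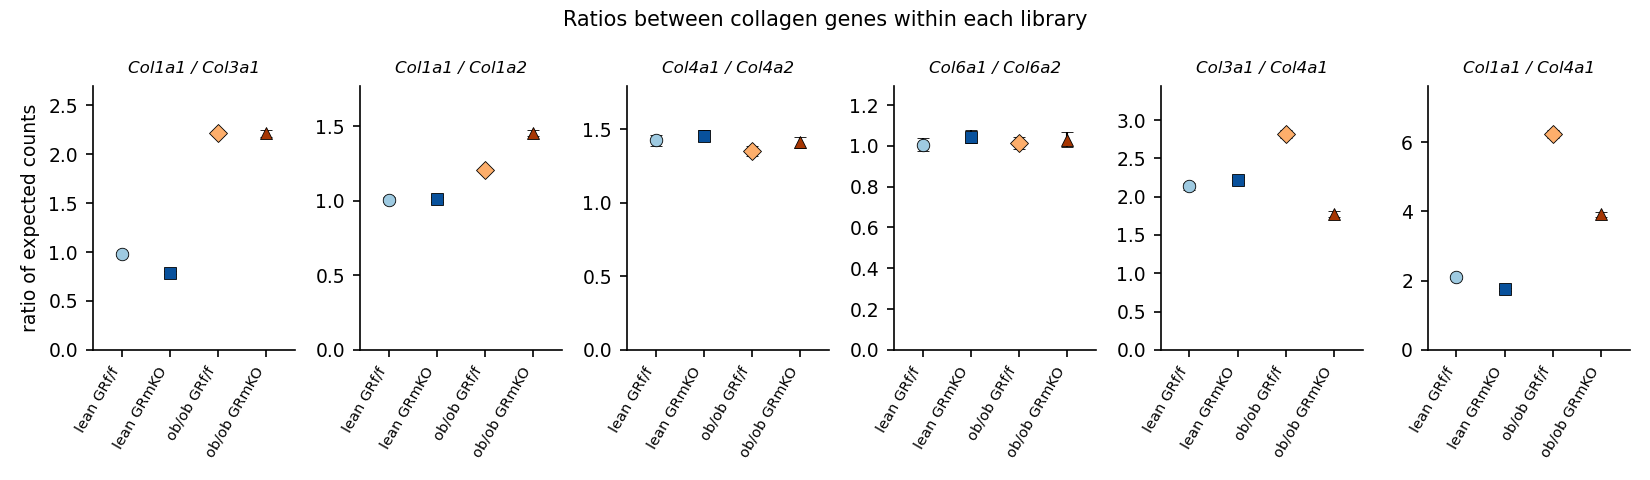
Ratios of expected counts between pairs of collagen genes within each library, with 95% counting intervals (y axes linear, starting at 0). Col1a1 to Col3a1 is 2.22 and 2.21 in the ob/ob libraries against 0.979 and 0.789 in the lean ones, while Col4a1 to Col4a2 and Col6a1 to Col6a2 are nearly level.

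The genes that make, process and bind collagen were examined by list. Over all tested genes, 6.58% were higher and 13.8% lower with obesity in GRf/f, and 6.00% and 22.0% in GRmKO. Between the lean libraries 7.13% were higher and 5.13% lower in GRmKO, and between the ob/ob libraries 6.33% and 10.1%. The counts of each list below are to be read beside these shares. Of 19 tested genes of collagen synthesis, which hydroxylate, fold and export the chains in the endoplasmic reticulum, 1 was higher and 0 lower with obesity in GRf/f, 1 was higher and 5 lower in GRmKO, 0 were higher and 2 lower in GRmKO among lean mice, and 0 were higher and 2 lower among ob/ob mice. Serpinh1, the collagen chaperone HSP47, was at 218, 212, 171 and 117 CPM, so that its level did not have the order of Col1a1 across the libraries. Ppib, a prolyl isomerase that helps the chains fold, was at 61.7, 69.3, 46.9 and 36.4 CPM, and Colgalt2, which adds galactose to collagen, at 11.98, 16.6, 8.25 and 6.75 CPM. These 3 genes were lower with obesity in GRmKO, with ratios of 0.551, 0.525 and 0.406.

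Of 13 genes of procollagen cleavage and crosslinking, 3 were higher and 1 lower with obesity in GRf/f, 2 and 7 in GRmKO, 0 and 0 between the lean libraries and 1 and 7 between the ob/ob libraries. Lox, the lysyl oxidase that crosslinks fibrils, was at 33.2, 37.8, 116 and 70.2 CPM, also highest in ob/ob GRf/f with ob/ob GRmKO next. Pcolce2, an enhancer of procollagen cleavage, was at 38.3, 36.2, 27.7 and 14.9 CPM, and Adamts3, a procollagen peptidase, at 0.869, 0.902, 1.65 and 2.51 CPM. Tll1, another such protease, was at 2.46, 1.81, 0.763 and 0.714 CPM. Adamts3 passed the count filter only through the ob/ob libraries and Tll1 only through the lean libraries, so their calls are a description only. Adamts3 is 1 of the 3 genes called higher with obesity in GRf/f, 1 of the 2 in GRmKO and the 1 between the ob/ob libraries. Tll1 is the 1 gene called lower with obesity in GRf/f. Of 12 genes of collagen breakdown, 1 was higher and 2 lower with obesity in GRf/f, 0 and 6 in GRmKO, 1 and 0 between the lean and 0 and 2 between the ob/ob libraries. Mmp9, a gelatinase also made by leukocytes, was at 15.0, 12.98, 3.52 and 0.762 CPM, and Fap, a fibroblast protease, at 13.2, 19.5, 8.25 and 7.54 CPM. Both were lower in both ob/ob libraries than in either lean library.

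Of 9 collagen receptors, 2 were higher and 1 lower with obesity in GRf/f, 2 and 4 in GRmKO, 1 and 0 between the lean and 0 and 2 between the ob/ob libraries. Itga10, a collagen-binding integrin chain, was at 0 in both lean libraries and at 5.05 and 4.27 CPM in the ob/ob libraries. Against a floor of 3 counts it was 34.9-fold higher with obesity in GRf/f and 28.3-fold higher in GRmKO. The counting intervals began at 28.0-fold and 22.7-fold. Itga10 passed the count filter only through the ob/ob libraries, so its calls are a description only. It is 1 of the 2 receptors called higher with obesity in each genotype. Ddr2, a receptor kinase for fibrillar collagen, was at 67.9, 73.7, 47.9 and 31.9 CPM, and Itga11, an integrin chain of fibroblasts, at 21.0, 23.7, 22.4 and 12.9 CPM. Lair1, an inhibitory collagen receptor of leukocytes, was at 1.34, 2.29, 0.663 and 0.799 CPM. It passed the count filter only through the lean libraries, and it is the 1 receptor called lower with obesity in GRf/f, so its calls are also a description only. Of 21 interstitial matrix genes, 9 were higher and 0 lower with obesity in GRf/f, 5 and 6 in GRmKO, 1 and 1 between the lean and 0 and 12 between the ob/ob libraries. Postn, a matrix protein that promotes crosslinking, was at 23.2, 20.4, 78.3 and 51.2 CPM, and Eln, elastin, at 55.1, 67.4, 177 and 105 CPM. Thbs1, thrombospondin 1, was at 28.0, 30.2, 78.0 and 57.8 CPM, and Tnc, tenascin C of tendon and muscle-tendon junction, at 11.7, 3.31, 26.7 and 18.0 CPM. All 4 were higher in both ob/ob libraries than in either lean library. Other genes of the list went the other way and were lower in both ob/ob libraries than in either lean library. These were Dcn (1247, 1343, 882 and 634 CPM), Ogn (213, 207, 162 and 85.0 CPM) and Lum (87.1, 133, 70.9 and 63.0 CPM).

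Basement membrane partners, the laminins, nidogens and proteoglycans beside type IV collagen, had few calls. Of 11 genes, 0 were called with obesity in GRf/f, 2 were lower in GRmKO, 1 was higher between the lean and 1 was lower between the ob/ob libraries. Nid1, which links laminin to type IV collagen, was at 405, 456, 433 and 288 CPM. Of 15 genes of the TGF-beta axis, a signalling pathway known to induce collagen expression, 3 were higher and 1 lower with obesity in GRf/f, 1 and 4 in GRmKO, 0 and 1 between the lean and 0 and 1 between the ob/ob libraries. The ligand Tgfb1 was at 29.8, 31.1, 30.1 and 26.4 CPM, within 1.5-fold in all comparisons. The receptor Tgfbr2 was at 64.9, 78.7, 63.3 and 48.3 CPM, lower with obesity in GRmKO by a ratio of 0.614. Ltbp2, a latent TGF-beta binding family member, was at 1.95 CPM in lean GRf/f, 0 in lean GRmKO, 3.38 in ob/ob GRf/f and 2.28 in ob/ob GRmKO. Against a floor of 3 counts it was 12.9-fold lower in GRmKO among lean mice. As a ratio this is 0.0773, and the counting interval reached up to 0.0982. With the same floor it was 15.1-fold higher with obesity in GRmKO. Ltbp2 is the 1 gene of this list called lower between the lean libraries and the 1 called higher with obesity in GRmKO. Both calls rest on the same count of 0 in lean GRmKO.

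Markers of the cell types that make collagen moved in different directions. Their counts stand beside the same shares of all genes: 6.58% higher and 13.8% lower with obesity in GRf/f, and 6.00% and 22.0% in GRmKO. In GRmKO against GRf/f, 7.13% were higher and 5.13% lower among lean mice, and 6.33% and 10.1% among ob/ob mice. The 8 tendon markers summed to 1016, 844, 1960 and 1056 CPM, highest in ob/ob GRf/f as type I collagen was. Most of this sum was Fmod (559, 437, 1015.5 and 490 CPM) and Thbs4 (287, 270, 608 and 413 CPM). With obesity 7 of 8 were higher in GRf/f and 1 of 8 in GRmKO, 1 of 8 was lower in GRmKO among lean mice and 6 of 8 among ob/ob mice. None was at 0 in any library. Tnmd, a defining gene of tendon cells, was at 35.9, 29.6, 66.0 and 28.4 CPM and Scx, the tendon transcription factor, at 10.004, 9.99, 17.9 and 14.3 CPM. Fmod, Thbs4 and Comp of this list are also interstitial matrix genes. The part of tendon markers in the collagen differences was not tested.

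The 10 fibroblast markers summed to 1209, 1447, 863 and 677 CPM, lower in both ob/ob libraries, and none was at 0. With obesity 4 of 10 were lower in GRf/f and 9 of 10 in GRmKO, and 1 was higher between the lean and 2 were lower between the ob/ob libraries. Pdgfra, the defining receptor of muscle fibroblasts, was at 68.3, 84.7, 72.3 and 46.7 CPM, lowest in ob/ob GRmKO. Endothelial markers summed to 541, 638, 420 and 381 CPM, with 2 of 8 lower in GRf/f and 8 of 8 in GRmKO with obesity, and mural markers to 1182, 1234, 970 and 811 CPM, with 0 and 1 of 6 lower. Macrophage markers summed to 258, 309, 183 and 115 CPM (2 and 6 of 6 lower with obesity), and adipocyte markers to 1042, 678, 554 and 348 CPM (2 and 2 of 6 lower). In both genotypes the 2 adipocyte markers called lower with obesity were Cfd (267, 145, 14.4 and 8.91 CPM) and Fabp4 (483, 373, 308 and 211 CPM). Adipoq was at 81.4, 48.3, 80.4 and 44.4 CPM, with little difference with obesity in either genotype. Schwann cell markers summed to 356, 441, 505 and 441 CPM and satellite cell markers to 28.1, 35.1, 41.7 and 33.0 CPM. In GRmKO against GRf/f, 5 of 6 adipocyte markers were lower among lean mice and 4 of 6 among ob/ob mice. For macrophage markers these numbers were 0 and 4 of 6. Among lean mice 3 of 4 satellite cell markers and 1 of 8 endothelial markers were higher, and 0 mural and 0 Schwann cell markers were called. Among ob/ob mice 0 markers of these 4 lists were called. The 6 cartilage and bone markers summed to 84.2, 63.3, 142 and 66.4 CPM, nearly all of it Chad. Myofibre markers, which checked the labelled tissue, summed to between 96693 and 114980 CPM, and 3 of 8 were higher with obesity in GRf/f and 4 of 8 in GRmKO. The part of these cell types in the collagen differences was not tested.

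**Figure D5:**
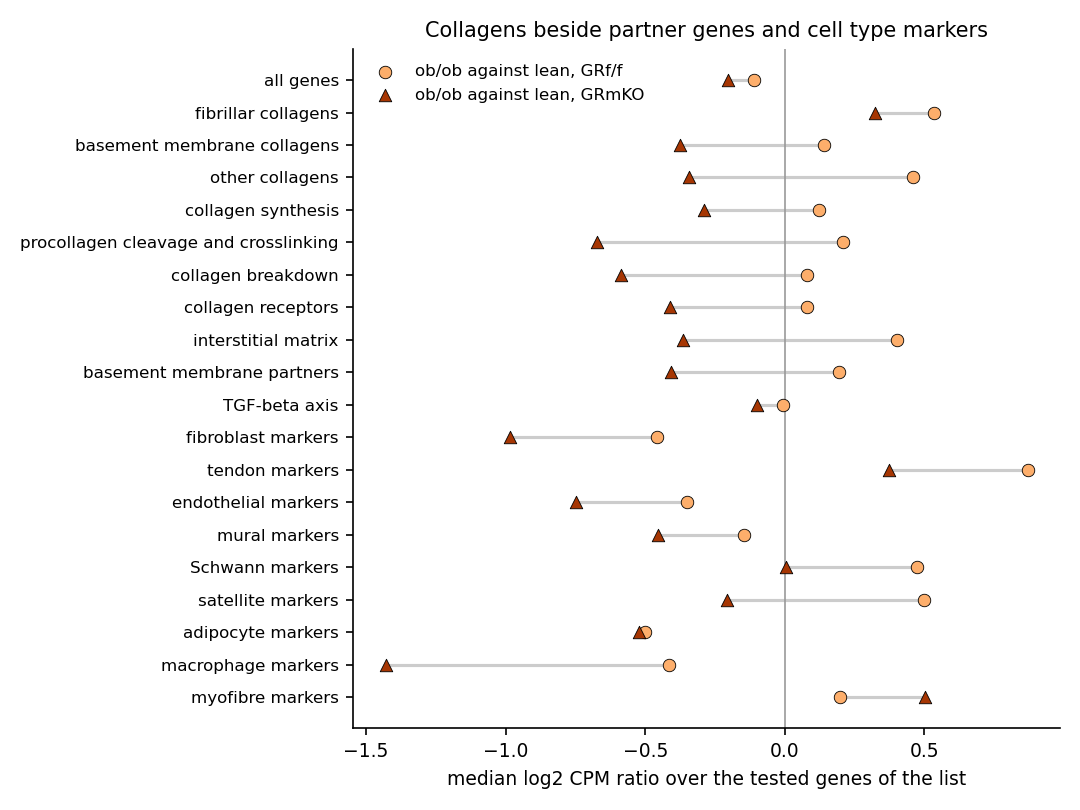
Median log2 CPM ratio of ob/ob against lean (x axis) over the tested genes of each list, in GRf/f (circles) and GRmKO (triangles). The medians of all genes are -0.11 and -0.20. Fibrillar collagens (0.53 and 0.32) and tendon markers (0.87 and 0.37) lie to the right of 0 in both genotypes, and fibroblast markers (-0.46 and -0.98) to the left in both. Of the 11 fibrillar genes, 6 were above 0 and 5 below 0 in GRmKO.

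Gene position and promoter sequence were examined for features that the naming rule did not use. All 6 type IV genes lie in head-to-head pairs, with start sites 21 bases apart for Col4a1 and Col4a2, 127 for Col4a3 and Col4a4 and 1309 for Col4a5 and Col4a6 (GENCODE M21, GRCm38). The listed transcripts of Col4a1 and Col4a2 overlap at their 5′ ends, and those of the other pairs do not. The first 2 pairs kept ratios of 1.35 to 1.46 and of 0.769 to 1.07 across the libraries. Of the third pair, both genes were called lower in GRmKO than in GRf/f among ob/ob mice (0.575 for Col4a5 and 0.608 for Col4a6). The counting interval of Col4a6 there, 0.290 to 1.23, included no change. With obesity, Col4a5 was higher in both genotypes, and Col4a6 was at ratios of 0.987 (counting interval 0.531 to 1.85) in GRf/f and 0.630 (0.298 to 1.31) in GRmKO. In RefSeq promoter windows of 300 bases across the gene start (GRCm38.p6), 35 of the 44 genes matched with 38 windows, and Col1a1 was not among them. The palindromic letters of the GR binding site, GNACA and TGTNC with 3 bases of any kind between them, which read the same on both strands, occurred in 0 of 38 windows and in 0.475% of all windows. TATAAA on either strand occurred in 5 of the 38 (13.2%, against 13.6% of all windows), Col3a1 among them, and CCAAT on either strand in 13 (34.2%, against 37.4%), Col1a2, Col11a1, Col4a1 and Col4a2 among them. A match of letters is a description of the window only.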

How the data were processed

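Gastrocnemius RNA pooled from 3 mice per group was sequenced by the authors as 100-bp paired-end reads, quantified with Salmon 1.2.1 against GENCODE M20 protein-coding transcripts (mm10) and summarized with tximport (lengthScaledTPM) in R 3.5.0. The deposited values are expected counts per gene name, not normalized between libraries. Of duplicated names, the authors kept the largest entry. Groups were taken from the labels.

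From these, CPM was computed with the library total as denominator, and genes with a mean of at least 20 expected counts over 4 libraries were compared (Python 3.11.15, scipy 1.17.1). With 1 library per group no test was run. The simulated replicates of the study's method were not used, and a fixed 1.5-fold rule took their place. A count of 0 was set to 3 in ratios. Intervals are exact Poisson (CPM) and Clopper-Pearson (ratios) at 95%, and cover counting error only. At these depths 3 counts correspond to 0.143 to 0.151 CPM. Scripts were tested on simulated data. Alternatives were edgeR 4.0.16 TMM and DESeq2 1.42.0 size factors, totals without the 50 most abundant genes, other filters, folds and interval rules.

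The collagen classes, partner lists and marker lists were chosen with earlier results of these data known. Values in all libraries are given for the 12 collagens of highest mean CPM, those past 1.5-fold in 2 or more comparisons, and up to 6 per comparison and direction with the largest change. Some further collagens, Tgfb1, Dcn, Ogn, Lum, and the marker genes Tnmd, Scx, Pdgfra, Cfd, Fabp4, Adipoq, Acan, Matn1, Matn3 and Chad were named outside this rule after their values were seen. Otherwise, up to 4 genes past 1.5-fold were named from a partner list. Of 16 TGF-beta names, 15 were matched. All 44 listed transcripts were found in GENCODE M21 under the same gene name, and sequences and coordinates come from that release.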

Additional observations from a re-analysis of the deposited data

Results flagged for a closer look

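With 1 library per group, a difference between groups could be noted only where the 2 genotypes went in opposite directions with obesity, or where GRmKO and GRf/f differed in opposite directions in lean and ob/ob mice, each side judged past its counting interval. The difference itself was not tested. Values are the log2 ratio of ob/ob to lean in GRmKO minus that in GRf/f. Of the class sums, this held for the fibrillar collagens (-1.02), between genotypes only, and for the basement membrane (-0.46) and other collagens (-0.77). It also held for 15 collagen genes, 13 of them with obesity, 12 between genotypes and 10 in both ways. Among fibrillar genes these were Col3a1 (-1.14), Col5a1 (-0.89), Col5a2 (-0.77), Col5a3 (-0.73) and Col27a1 (-1.65). Among basement membrane genes they were Col4a1 (-0.42), Col4a2 (-0.45) and Col15a1 (-0.61). Of the other class they were Col6a1 (-0.85), Col6a2 (-0.82), Col6a3 (-0.75), Col8a1 (-0.87), Col14a1 (-0.98), Col16a1 (-1.14) and Col9a1, whose value of -3.17 rests on the 3-count floor because it had no count in ob/ob GRmKO.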

How the results depend on the processing

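No paired analysis was possible because each group was 1 library. No collagen gene past 1.5-fold and no class sum changed direction under the alternatives; of the log2 changes of single genes under the other scalings, 354 stayed within the counting interval of the main value and 102 did not. In GRf/f with obesity, collagen genes called lower numbered 0, and 3 when the mean filter was replaced by counts above 0 in all libraries, which tests 41 collagens and also drops Col9a1. In GRmKO with obesity, the 12 lower became 7 (TMM), 6 (DESeq2 size factors), 5 (mean of at least 100 counts) and 5 (2-fold), and the 8 higher became 3 (2-fold). Between lean libraries, the 2 higher became 1 (mean of at least 100), 1 (2-fold) and 1 (counting interval past no change), and the 3 lower became 1 (2-fold). Between ob/ob libraries, the 1 higher became 5 under the same replacement and the 20 lower became 5 at 2-fold. The added calls were of Col9a3, Col10a1, Col19a1 and Col25a1, which have few counts.

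Log2 ratios of class sums are given under TMM, DESeq2 size factors and totals without the 50 most abundant genes, in that order. With obesity in GRf/f, the fibrillar 1.21 became 1.33, 1.33 and 1.25, the basement membrane 0.15 became 0.26, 0.27 and 0.19, and the other 0.42 became 0.54, 0.54 and 0.46. With obesity in GRmKO, 0.19 became 0.40, 0.40 and 0.27, then -0.31 became -0.10, -0.093 and -0.23, and -0.35 became -0.14, -0.13 and -0.27. Between ob/ob libraries, -0.92 became -0.88, -0.87 and -0.89, then -0.23 became -0.19, -0.18 and -0.20, and -0.57 became -0.53, -0.52 and -0.54. Between lean libraries, TMM and DESeq2 size factors changed 0.10 to 0.052 and 0.056, 0.22 to 0.17 and 0.18, and 0.20 to 0.15 and 0.15. Each scaling adds 1 constant to all genes of a comparison, which is the cause of these shifts. The other 51 values of this kind stayed within the limits set for them. Pools of 3 mice give no spread between animals, so no difference here has an error between animals, and counts under about 20 make ratios of the scarcest collagens imprecise.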
